A study of Homo sapiens with 24 samples.

Results

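The transcripts of 10 genes of the NF-kB pathway were followed across 24 RNA sequencing libraries of AGS cells treated with kinase inhibitors. The 10 genes are the subunits RELA, RELB, NFKB1 and NFKB2, the inhibitors NFKBIA and NFKBIE, and the target genes TNFAIP3, BIRC2, BIRC3 and ICAM1. They were taken by symbol from a table of 23368 genes, and all 10 were found and passed the filter on low counts, which left 13947 genes for testing. They were chosen by their roles in the pathway, with earlier results of these data known.

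AGS is an established human gastric adenocarcinoma line, and all cells were harvested 24 h after treatment. The control group received no inhibitor, and whether it received vehicle is not stated in the sources used here. PI103, an inhibitor of PI3 kinases and mTOR, was given at 0.7 µM. PD0325901, a MEK inhibitor, was given at 0.035 µM, and (5Z)-7-oxozeaenol, an inhibitor of the kinase TAK1 called oxozeaenol here, at 0.5 µM. The remaining groups received PI103 with oxozeaenol or PI103 with PD0325901, with each agent at 50% of its single concentration. The design text counts 4 biological replicates in each of the 6 groups, numbered alike by batch. The labels do not say how separately the cultures were grown, so p-values measure the spread between these samples. All groups come from the same line, without an added cytokine named in the labels, so the levels are those of cells in culture medium.

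NF-kB factors are dimers of REL-family subunits that inhibitor proteins hold in the cytoplasm. In the canonical arm, TAK1 activates the IKK complex, which marks the inhibitor for degradation and frees dimers of RELA and the NFKB1 product to enter the nucleus. In the non-canonical arm, the NFKB2 precursor is processed and its product pairs with RELB. Many of these genes are themselves NF-kB targets, so that NFKBIA, NFKBIE and TNFAIP3 close negative feedback loops, and epithelial cells use the same pathway for survival and for signals to leukocytes.

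Promoter windows of RefSeq (GRCh38.p14), running from 250 bases before to 50 bases after each annotated start, were searched on both strands for the 10-base NF-kB consensus, the kappa B site, with overlapping matches allowed. Of 35116 windows of 300 bases, 3956 (11.3%) held a match. Windows were found for 8 of the 10 genes, 13 in all, and 6 windows of 5 genes held a match. NFKBIE and RELB had no entry. The windows of RELA, BIRC2 and ICAM1 held no match, which says only that these letters are not in these windows. Stretches around matches are shown for the 5 genes because they include genes that moved in opposite directions, with the matched bases in capitals, 5′ to 3′ on the strand of the gene.
NFKB1: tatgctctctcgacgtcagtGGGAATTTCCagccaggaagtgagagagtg
NFKB2, upstream start: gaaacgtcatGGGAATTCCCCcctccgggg
NFKB2, downstream start: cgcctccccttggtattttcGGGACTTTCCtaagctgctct
NFKBIA: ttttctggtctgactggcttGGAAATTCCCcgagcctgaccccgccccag
TNFAIP3: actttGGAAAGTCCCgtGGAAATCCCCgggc
BIRC3: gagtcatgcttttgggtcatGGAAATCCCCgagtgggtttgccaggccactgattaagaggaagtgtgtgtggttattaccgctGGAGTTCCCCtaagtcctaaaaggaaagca

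The NFKB1 stretch is chr4:102501290-102501339 on the plus strand, 20 to 69 bases before the start, with 11 of its 50 bases in an annotated exon. The NFKB2 stretches are chr10:102394461-102394490 and chr10:102395664-102395704 on the plus strand. The former lies wholly in an annotated exon, as do 12 of the 41 bases of the latter. NFKB2 has a start further upstream, whose window (chr10:102393860-102394159) held no match, so the label upstream means the first start with a match. Further NFKB2 matches, 78 bases before that start and 176 bases before the downstream start, are not shown. The NFKBIA stretch is chr14:35404801-35404850 on the minus strand, 52 to 101 bases before the start and outside exons. The TNFAIP3 stretch is chr6:137867187-137867217 on the plus strand, 42 to 72 bases before the RefSeq start, with 30 of its 31 bases in an annotated exon. The BIRC3 stretch is chr11:102317265-102317378 on the plus strand, 106 to 219 bases before the start and outside exons. A match describes the letters only and does not show that a factor binds there.

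The libraries held 38.1 to 84.2 M counts in genes, and the 10 genes had between 51 counts (TNFAIP3 in replicate 3 of oxozeaenol) and 7631 counts in a library. Of the 5 epithelial markers, all were detected, with a summed level of 4600 to 7510 counts-per-million (CPM) over all libraries. The 5 leukocyte markers summed to 38.7 to 49.3 CPM in control and to 188 to 468 CPM in the treated groups, nearly all of it lysozyme (LYZ), while the defining leukocyte marker PTPRC averaged at most 0.04 CPM in a group. The 4 fibroblast markers, nearly all of their sum COL1A1, summed to 14 to 17.1 CPM in control, 32.2 to 34.2 with PI103, 18.1 to 22.3 with PD0325901 and 8.14 to 9.93 with oxozeaenol. In the combinations they summed to 9.09 to 11 CPM with oxozeaenol and 21.7 to 25.6 with PD0325901, and DCN, a defining fibroblast marker, averaged at most 0.00441 CPM in a group. Of the 3 fibroblast markers tested, 3 were higher than control with PD0325901 (edgeR, adjusted p under 0.05, median log2 fold change 2.47). With PI103 and PD0325901, 2 were higher and 0 lower. In each other treatment 1 was higher and 1 lower, and the median with oxozeaenol was 1.39 although the sum fell. Of all genes, 25.7% to 32.2% were higher and 25.2% to 32.6% lower in a treatment. The 3 endothelial markers summed to 0.103 to 0.437 CPM over all libraries. The leukocyte and fibroblast sums of every treated group lay outside the control range, and their part in the changes below was not tested. In these bulk samples, fewer cells with a transcript and less of it per cell cannot be told apart.

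In control cells, levels per kilobase of exon (GENCODE release 29) ran over a wide range. BIRC2 was highest at 20.1 ± 1.97 CPM per kb (SD, n = 4), followed by NFKBIA at 14.5 ± 1.2, ICAM1 at 12.2 ± 0.31 and NFKB1 at 10.3 ± 0.201. NFKB2 held 7.65 ± 0.883 CPM per kb and RELA 4.89 ± 0.264. NFKBIE at 2.44 ± 0.159, RELB at 1.98 ± 0.387, BIRC3 at 0.746 ± 0.154 and TNFAIP3 at 0.519 ± 0.0262 CPM per kb were the low end. The paralogs BIRC2 and BIRC3 thus stood at opposite ends. All later levels are CPM of the TMM-scaled library size and are compared within a gene only.

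Against control, the 10 genes split. The 2 subunit precursors NFKB1 and NFKB2 and the ubiquitin ligase BIRC2 were called lower in each of the 5 treatments. None of the 10 was called higher in all of them. The share of all genes called in the same direction in all 5 was not counted, and these comparisons share the control libraries. A gene is called where the adjusted p of edgeR's quasi-likelihood test, Benjamini-Hochberg adjusted over the 13947 genes, is under 0.05. With PI103, 2 of the 10 genes were called higher and 5 lower, against 26.2% and 25.2% of all genes tested. PD0325901 gave 3 higher and 4 lower, against 28.7% and 29.9% of all genes. With oxozeaenol, 1 was called higher and 6 lower, against 25.7% and 26.1%. The gene higher with this TAK1 inhibitor was ICAM1, and the feedback genes NFKBIA, NFKBIE and TNFAIP3 were not called.

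PI103 with oxozeaenol gave 3 higher and 6 lower, against 27.7% and 27.9% of all genes. PI103 with PD0325901 gave 3 higher and 4 lower, against 32.2% and 32.6%. In that last comparison the split over all genes depends on the scaling, since 49.6% of called genes were higher with TMM, 59.9% with library totals and 61% with upper-quartile scaling. The median log2 fold change of the 10 genes was -0.28 for PI103, -0.07 for PD0325901 and -0.43 for oxozeaenol. It was -0.51 for the combination with oxozeaenol and -0.02 for that with PD0325901, while the medians of all genes lay between -0.02 and 0.02. The libraries of a treatment and of control did not overlap for 7 of the 10 genes with PI103, 6 with PD0325901 and 7 with oxozeaenol, against 48.9%, 49% and 42.2% of all genes. In the combinations they did not overlap for 10 genes with oxozeaenol and 5 with PD0325901, against 52.6% and 56.9%. The 5 comparisons share the control libraries.

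**Figure D1:**
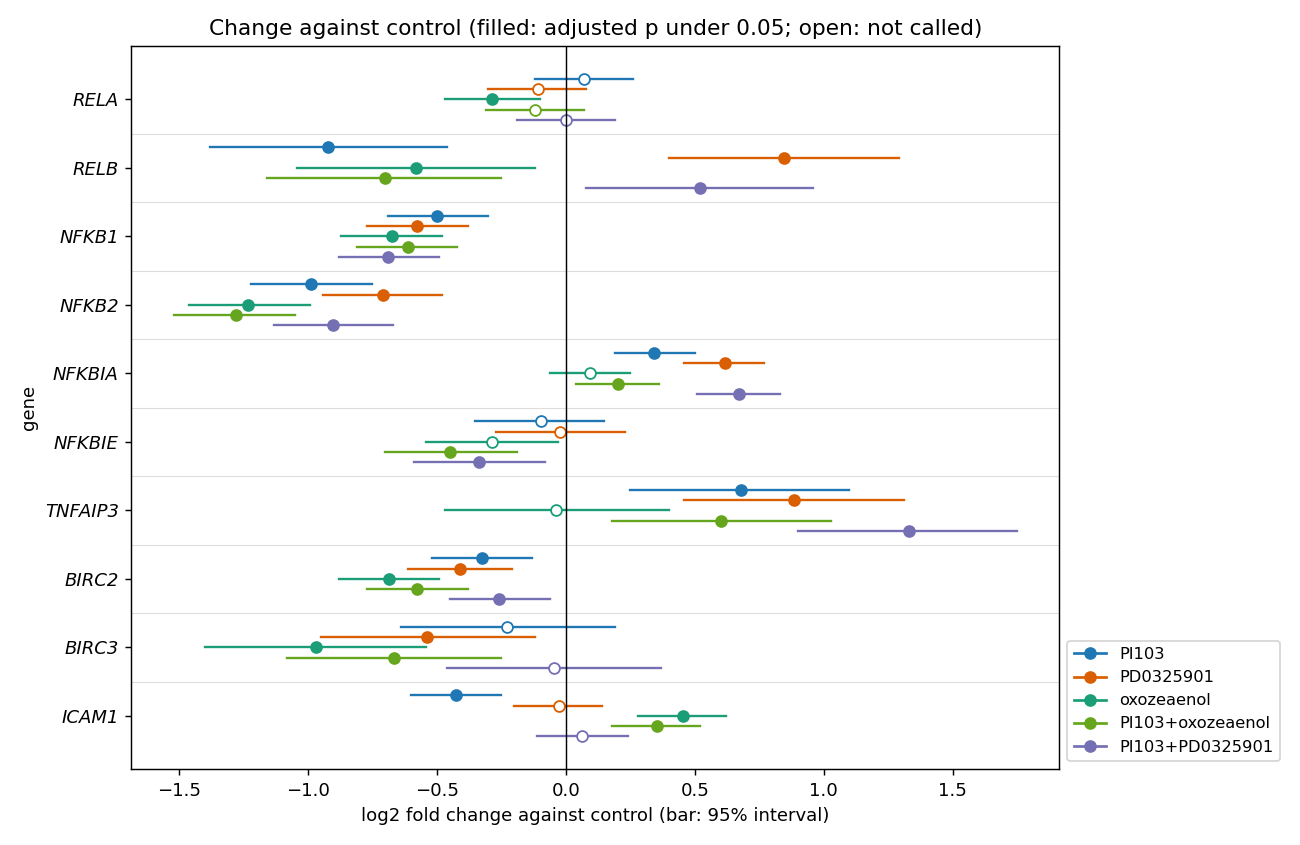
Log2 fold change of each of the 10 genes against control in the 5 treatments (x axis), with 95% intervals as bars and filled points where the adjusted p is under 0.05. NFKB1, NFKB2 and BIRC2 lie below 0 and are called in all 5 treatments. NFKBIE and BIRC3 also lie below 0 in all 5, and NFKBIA above 0, with only some of these points called. RELB lies above 0 in the 2 treatments with PD0325901 (0.85 and 0.52) and below 0 in the other 3.

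Among the subunits, RELA, which carries the main activation domain of canonical NF-kB, varied least. Its libraries lay between 25.7 and 28.8 CPM in control and between 20.2 and 24.1 CPM with oxozeaenol, without overlap. On the log2 scale it fell by 0.29 (SE 0.0914, adjusted p 0.0107). It was not called in the other 4 treatments. Its log2 change was 0.07 (95% interval -0.12 to 0.26) with PI103, -0.11 (-0.30 to 0.08) with PD0325901, -0.12 (-0.31 to 0.07) with PI103 and oxozeaenol, and 0.00 (-0.19 to 0.19) with PI103 and PD0325901. Ordered by mean level from PI103 at 28 CPM to oxozeaenol at 21.9 CPM, each group overlapped the next.

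NFKB1, whose precursor p105 gives the p50 subunit, was lower in every treatment. The control libraries lay between 62.9 and 66 CPM, and all 20 treated libraries lay below them, between 34.3 and 47.6 CPM. It fell by 0.50 (SE 0.0947, adjusted p 8.8e-05) with PI103, by 0.58 (SE 0.0948, adjusted p 1.09e-05) with PD0325901 and by 0.67 (SE 0.0951, adjusted p 1.77e-06) with oxozeaenol. The combinations gave -0.61 (adjusted p 5.42e-06) with oxozeaenol and -0.69 (adjusted p 5.88e-07) with PD0325901. Among the 5 treated groups, with means between 40 and 45.7 CPM, neighbours in the order of levels overlapped.

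NFKB2, the precursor of the p52 subunit of the non-canonical arm, showed the largest fall of the 10 genes in each of the 5 treatments. Its level was 38.3, 34.5, 28.8 and 35.4 CPM in control replicates 1 to 4. With PI103 it was 17.8, 17.5, 16.9 and 17 CPM, and with PD0325901 20, 25, 20.8 and 17.9 CPM. No treated library reached the lowest control. Oxozeaenol gave 15.5, 15.9, 14.5 and 12.6 CPM. In the combinations the values were 16, 14, 13.8 and 12.4 CPM with oxozeaenol and 20.6, 20.7, 16.6 and 15.3 CPM with PD0325901. The libraries with oxozeaenol, alone or combined, were all at 16 CPM or less, and of the other treated libraries only replicate 4 of PI103 and PD0325901 lay in that range. NFKB2 fell by 0.99 (SE 0.113, adjusted p 7.37e-08) with PI103, by 0.71 (SE 0.113, adjusted p 6.56e-06) with PD0325901 and by 1.23 (SE 0.115, adjusted p 2.62e-09) with oxozeaenol. The combination with oxozeaenol gave a change of -1.28 (SE 0.114, adjusted p 7.78e-10), a 2.43-fold lower level, and that with PD0325901 one of -0.90 (SE 0.113, adjusted p 1.32e-07).

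RELB, the subunit that pairs with p52, moved in opposite directions under different inhibitors. In control replicates 1 to 4 it held 5.18, 6.91, 4.85 and 7.15 CPM. With PI103 it held 3.8, 3.66, 3.22 and 2.04 CPM, and with PD0325901 9.24, 14.7, 11.5 and 7.92 CPM. Every PI103 library was below and every PD0325901 library above all controls. Oxozeaenol gave 4.47, 4.26, 3.75 and 3.6 CPM, and PI103 with oxozeaenol 4.12, 3.11, 3.93 and 3.62 CPM. PI103 with PD0325901 gave 9.85, 12.3, 6.12 and 6.2 CPM, so that replicates 3 and 4 lay within the control range. The order of mean levels was PD0325901, PI103 with PD0325901, control, oxozeaenol, PI103 with oxozeaenol and PI103, and among neighbours only control and oxozeaenol did not overlap.

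RELB rose by 0.85 (SE 0.215, adjusted p 0.00157) with PD0325901, a 1.8-fold higher level. It was lower with PI103 alone, by a log2 change of -0.92 (SE 0.223, adjusted p 0.00125), and in the combination of PI103 and oxozeaenol, by one of -0.70 (SE 0.221, adjusted p 0.00914). With oxozeaenol alone it fell by 0.58 (SE 0.221, adjusted p 0.0312), a call that was lost without control replicate 2 (-0.51) or 4 (-0.49) or without oxozeaenol replicate 3 (-0.55) or 4 (-0.53), by limma-voom (-0.55) and under upper-quartile scaling (-0.52). With PI103 and PD0325901 it rose by 0.52 (SE 0.215, adjusted p 0.0373), but this was lost without replicate 1 (0.45) or 2 (0.30) of that combination or without control replicate 1 (0.45) or 3 (0.44), without the filter on low counts (0.50) and in a fit of only these groups (0.52, adjusted p 0.0546).

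**Figure D2:**
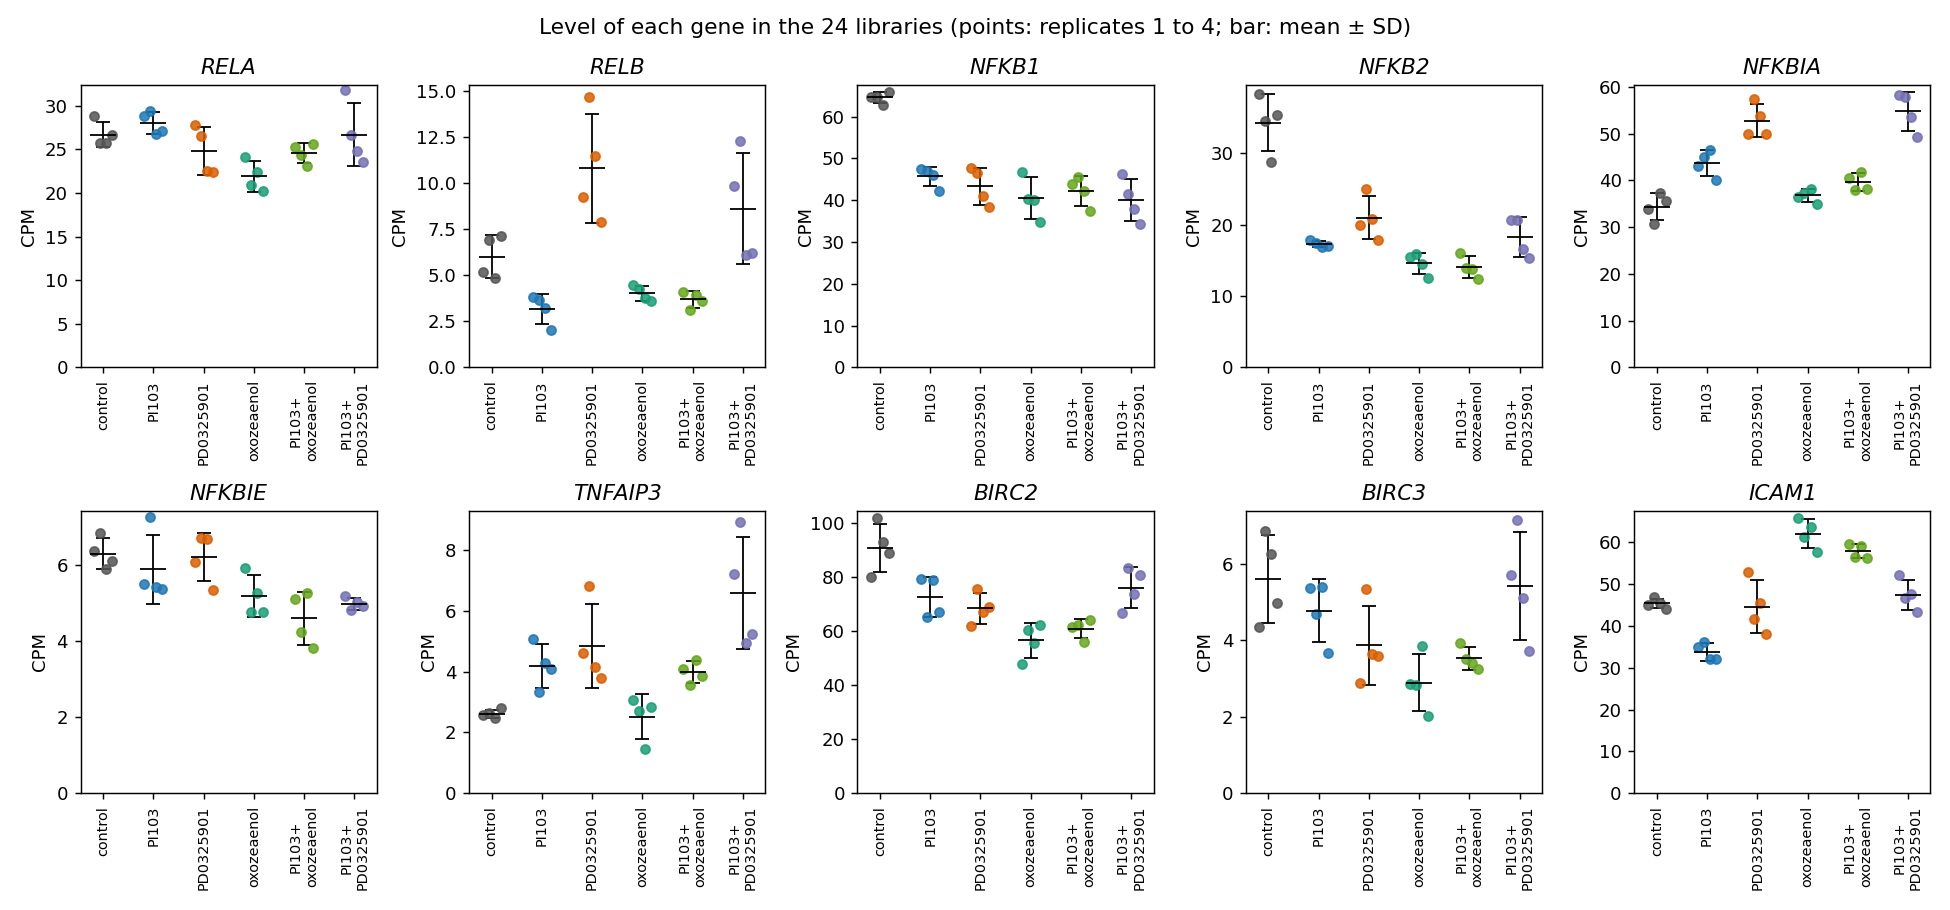
CPM of each of the 10 genes (one panel per gene, y axis from 0) in the 6 groups, with a point per library (replicates 1 to 4 from left to right) and the mean ± SD as bars. All NFKB1 and NFKB2 control points lie above every treated point, and the ICAM1 points with oxozeaenol (57.8 to 65.9 CPM) and PI103 with oxozeaenol (56.4 to 59.6 CPM) lie above all controls (44.1 to 46.9 CPM).

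NFKBIA, called higher than control in 4 of the 5 treatments, encodes IkB-alpha, the main inhibitor of RELA dimers and a target of them. Its level was 33.9, 30.7, 37.3 and 35.7 CPM in control replicates 1 to 4, and 36.5, 37.4, 38.1 and 35 CPM with oxozeaenol. PI103 gave 43.2, 45, 46.5 and 40 CPM, and PD0325901 gave 50, 57.4, 53.7 and 50 CPM. Control and oxozeaenol overlapped, and the PI103 and PD0325901 libraries were all above both. PI103 with oxozeaenol gave 40.6, 37.9, 41.8 and 38.1 CPM, and PI103 with PD0325901 gave 58.2, 57.9, 53.6 and 49.3 CPM. NFKBIA rose by 0.34 (SE 0.0767, adjusted p 0.000546) with PI103, by 0.62 (SE 0.0768, adjusted p 1.75e-07) with PD0325901 and by 0.67 (SE 0.0768, adjusted p 3.05e-08) with both in combination. Its change with oxozeaenol was 0.09 (95% interval -0.06 to 0.25). With PI103 and oxozeaenol it rose by 0.20 (SE 0.0767, adjusted p 0.0276). That call was lost without control replicate 1 (0.20, adjusted p 0.0552) or 2 (0.15), without replicate 1 (0.19) or 3 (0.18) of the combination, and without the filter on low counts (0.15).

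NFKBIE encodes IkB-epsilon, an inhibitor that is also resynthesised after NF-kB activation. It ranged from 5.89 to 6.84 CPM in control, from 3.81 to 5.27 CPM with PI103 and oxozeaenol and from 4.8 to 5.18 CPM with PI103 and PD0325901. Both combinations lay below all controls. In the combination with oxozeaenol NFKBIE fell by 0.45 (SE 0.124, adjusted p 0.00332). In that with PD0325901 it fell by 0.33 (SE 0.123, adjusted p 0.0198), a call lost without control replicate 2 (-0.30) and under scaling to library totals (-0.21) or the upper quartile (-0.19). The single agents were not called, at -0.10 (95% interval -0.35 to 0.15) with PI103, -0.02 (-0.27 to 0.23) with PD0325901 and -0.29 (-0.54 to -0.03, adjusted p 0.0564) with oxozeaenol. The last value was called without oxozeaenol replicate 1 (-0.36, adjusted p 0.0272), with DESeq2 (adjusted p 0.0386) and with the replicate block, which takes the batch number as a term (adjusted p 0.0368).

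TNFAIP3 encodes A20, a ubiquitin-editing enzyme that shuts down signalling upstream of IKK. Its transcript was scarce, with 2.58, 2.63, 2.48 and 2.8 CPM in control replicates 1 to 4 and 3.08, 2.72, 1.45 and 2.82 CPM with oxozeaenol. PI103 gave 5.07, 3.33, 4.27 and 4.09 CPM, and PD0325901 gave 4.61, 6.83, 4.14 and 3.78 CPM. All PI103 and PD0325901 libraries were above all controls, and oxozeaenol overlapped control on both sides. PI103 with oxozeaenol gave 4.1, 3.56, 4.39 and 3.86 CPM, and PI103 with PD0325901 gave 7.2, 8.92, 4.95 and 5.25 CPM. The group with PI103 and PD0325901 was the highest, though its lowest library lay below the highest of PD0325901 alone.

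TNFAIP3 rose by 0.68 (SE 0.207, adjusted p 0.00785) with PI103, by 0.88 (SE 0.207, adjusted p 0.000659) with PD0325901 and by 0.60 (SE 0.207, adjusted p 0.0157) with PI103 and oxozeaenol. PI103 with PD0325901 raised it by 1.33 (SE 0.206, adjusted p 3.59e-06), a 2.51-fold higher level. With oxozeaenol alone the change was -0.04 (95% interval -0.47 to 0.40), and it was 0.13 without replicate 3, the library at 1.45 CPM. An antisense gene covers 1.88% of its exon length in GENCODE.

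BIRC2 and BIRC3, paralogous neighbours on chromosome 11, encode the ubiquitin ligases cIAP1 and cIAP2, which act at TNF receptors and restrain the non-canonical arm. BIRC2 lay between 80.2 and 102 CPM in control, between 65.4 and 79.3 CPM with PI103, between 62 and 75.8 CPM with PD0325901 and between 48 and 62.2 CPM with oxozeaenol. None of these 3 treatments overlapped control. BIRC2 fell by 0.32 (SE 0.096, adjusted p 0.00634) with PI103, by 0.41 (SE 0.0961, adjusted p 0.000664) with PD0325901 and by 0.68 (SE 0.0965, adjusted p 1.77e-06) with oxozeaenol. In the combination with oxozeaenol the change was -0.58 (SE 0.0963, adjusted p 1.52e-05). PI103 with PD0325901 gave 66.8 to 83.3 CPM, overlapping control, and a fall of 0.26 (SE 0.0959, adjusted p 0.0213). That call was lost without control replicate 2 (-0.20) or 3 (-0.23), without replicate 1 (-0.20) or 3 (-0.24) of the combination, and under scaling to library totals (-0.13) or the upper quartile (-0.11).

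BIRC3 stood far below BIRC2 and varied more between libraries. It held 4.34, 6.87, 6.26 and 4.97 CPM in control replicates 1 to 4 and 2.85, 2.82, 3.86 and 2.03 CPM with oxozeaenol. PI103 with oxozeaenol gave 3.94, 3.52, 3.42 and 3.24 CPM. Both groups with oxozeaenol lay below all controls. PI103 gave 5.38, 4.68, 5.4 and 3.67 CPM, PD0325901 2.89, 5.34, 3.64 and 3.6 CPM, and PI103 with PD0325901 5.72, 7.14, 5.12 and 3.72 CPM, each overlapping control. BIRC3 fell by 0.97 (SE 0.208, adjusted p 0.000375) with oxozeaenol, a 1.96-fold lower level, and by 0.66 (SE 0.204, adjusted p 0.00749) with PI103 and oxozeaenol. With PD0325901 it fell by 0.54 (SE 0.203, adjusted p 0.0262). This call was lost without control replicate 2 (-0.43) or 3 (-0.45), without PD0325901 replicate 1 (-0.40), 3 (-0.51) or 4 (-0.50), and under scaling to library totals (-0.45) or the upper quartile (-0.44). PI103 alone gave -0.23 (95% interval -0.64 to 0.19) and PI103 with PD0325901 -0.05 (-0.46 to 0.37), neither of them called.

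ICAM1, the adhesion molecule that binds leukocyte integrins, was the gene that oxozeaenol raised. Its level was 45.1, 46.9, 45.5 and 44.1 CPM in control replicates 1 to 4, 34.9, 36.3, 32.1 and 32 CPM with PI103 and 65.9, 61.2, 63.6 and 57.8 CPM with oxozeaenol. PI103 with oxozeaenol gave 59.6, 56.6, 59.2 and 56.4 CPM. PI103 libraries were all below and both oxozeaenol groups all above control. PD0325901 gave 52.9, 41.8, 45.6 and 38.1 CPM and PI103 with PD0325901 52.2, 46.7, 47.6 and 43.3 CPM, both on either side of control. ICAM1 rose by 0.45 (SE 0.0832, adjusted p 6.31e-05) with oxozeaenol and by 0.35 (SE 0.0831, adjusted p 0.000801) where oxozeaenol was combined with PI103. PI103 alone gave a change of -0.42 (SE 0.0834, adjusted p 0.000138). It was not called with PD0325901 (-0.03, 95% interval -0.20 to 0.14) or with PI103 and PD0325901 (0.06, -0.11 to 0.24), where upper-quartile scaling called it higher (0.21, adjusted p 0.0272). Antisense genes lie opposite 23.6% of the ICAM1 exon length, and the sources used here do not say if reads were counted by strand, so part of these counts could belong to either strand.

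The single agents were then compared with each other, each at its own concentration, to test whether the genes responded differently. Oxozeaenol against PD0325901 had 1 gene called higher and 5 lower, against 13.4% and 15.1% of all genes. The same comparison under library totals had 36.1% of called genes higher, against 47.1% with TMM. RELB was lower by 1.43 on the log2 scale with oxozeaenol (value -1.43, SE 0.222, adjusted p 4.99e-05), and TNFAIP3 (-0.92, adjusted p 0.00194), NFKBIA (-0.52, adjusted p 2.15e-05) and NFKB2 (-0.52, adjusted p 0.00154) were lower as well. ICAM1 was higher by 0.48 (adjusted p 0.000155). BIRC2 was lower (-0.27, adjusted p 0.0345), a call lost without PD0325901 replicate 2 (-0.25), 3 (-0.28) or 4 (-0.27) or oxozeaenol replicate 1 (-0.23) or 3 (-0.27), and in a fit of only these groups (-0.28, adjusted p 0.09). NFKB1 was not called (-0.10, 95% interval -0.29 to 0.10). RELA (-0.26, adjusted p 0.0485) and NFKBIE (-0.37, adjusted p 0.0428) were called lower only without oxozeaenol replicate 1.

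Oxozeaenol against PI103 had 1 gene called higher and 5 lower, against 22.5% and 20.6% of all genes. ICAM1 was higher by 0.88 (SE 0.0839, adjusted p 7.25e-09), the largest of these differences. BIRC3 (-0.74, adjusted p 0.00587), TNFAIP3 (-0.72, adjusted p 0.00738), BIRC2 (-0.36, adjusted p 0.00379), RELA (-0.36, adjusted p 0.00282) and NFKBIA (-0.25, adjusted p 0.0108) were lower. RELB, at 0.34 (95% interval -0.13 to 0.81), was not called. NFKB1 (-0.17, adjusted p 0.14) and NFKB2 (-0.24, adjusted p 0.0903) were called lower with the replicate block (adjusted p 0.0359 and 0.0265). NFKB1 was also called without oxozeaenol replicate 1 (-0.25, adjusted p 0.0478), and NFKB2 in a fit of only these groups (-0.25, adjusted p 0.0447).

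PD0325901 against PI103 had 4 genes called higher and 0 lower, against 22.9% and 21.7% of all genes. RELB was higher by 1.77 (SE 0.224, adjusted p 6.27e-07), a 3.4-fold difference and the largest among all comparisons of the 10 genes. ICAM1 was higher by 0.40 (adjusted p 0.00035) and NFKBIA by 0.27 (adjusted p 0.00501). NFKB2 was higher by 0.28 (adjusted p 0.0481), a call lost without any of the 4 PI103 libraries (0.27 to 0.29) or without PD0325901 replicate 2 (0.22) or 3 (0.28), without the filter (0.28, adjusted p 0.055) and by limma-voom (0.27). RELA was called lower with the replicate block (-0.18, adjusted p 0.0429) and not without it (-0.18, adjusted p 0.117).

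Each combination was compared with its single agents, which were given at the higher concentration. PI103 with oxozeaenol against PI103 had 1 gene called higher and 1 lower, against 9.39% and 8.92% of all genes. ICAM1 was higher by 0.78 (SE 0.0837, adjusted p 1.75e-07). NFKBIE was lower (-0.35, SE 0.124, adjusted p 0.0492), but it ranged from -0.42 to -0.23 in fits that each left out 1 library, and the call was lost without PI103 replicate 1 (-0.38), 2 (-0.23) or 3 (-0.39) or replicate 1 (-0.40), 2 (-0.31) or 4 (-0.27) of the combination. Library totals, no filter, limma-voom and a fit of only these groups also ended it (adjusted p 0.0509 to 0.0648). NFKB2 (-0.30, adjusted p 0.0712) and BIRC2 (-0.25, adjusted p 0.0684) were called lower with the replicate block (adjusted p 0.0165 and 0.0345) and in a fit of only these groups (0.0111 and 0.0142), which also called RELA (-0.20, adjusted p 0.0322) and BIRC3 (-0.44, adjusted p 0.022). Against oxozeaenol, the same combination had 1 gene called higher and 0 lower, against 7.59% and 7.28% of all genes. TNFAIP3 was higher by 0.64 (SE 0.21, adjusted p 0.0387), a call lost without oxozeaenol replicate 2 (0.67) or 3 (0.47), without replicate 1 (0.62), 3 (0.59) or 4 (0.65) of the combination, and by limma-voom (0.65, adjusted p 0.0586).

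PI103 with PD0325901 against PI103 had 4 genes called higher and 0 lower, against 18.8% and 19.9% of all genes. With TMM 48.5% of all called genes were higher in that comparison, against 58.9% with library totals and 59.8% with upper-quartile scaling. RELB was higher by 1.44 (SE 0.223, adjusted p 1.86e-05), ICAM1 by 0.49 (SE 0.0835, adjusted p 5.58e-05) and NFKBIA by 0.33 (SE 0.0765, adjusted p 0.00141). TNFAIP3 was higher by 0.65 (SE 0.202, adjusted p 0.0125), a call lost without PI103 replicate 2 (0.55) or replicate 2 of the combination (0.47). NFKB1 was called lower with the replicate block (-0.20, adjusted p 0.0246) and without replicate 1 of the combination (-0.27, adjusted p 0.0299).

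Against PD0325901, the same combination had 0 of the 10 genes called by edgeR, with 3 at an unadjusted p under 0.05, against 8.06% of all genes called higher and 10% lower. DESeq2 called 1 of the 10, NFKBIE (-0.32, adjusted p 0.0475). With the replicate block, edgeR called NFKBIE (-0.31, adjusted p 0.0488) and BIRC3 (0.48, adjusted p 0.0388). BIRC3 was also called higher without PD0325901 replicate 2 (0.67) or replicate 4 of the combination (0.63), and TNFAIP3 without PD0325901 replicate 2 (0.64 against 0.44 with all libraries). Over all genes 44.6% of calls were higher with TMM, 56.4% with library totals and 60% with upper-quartile scaling.

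The level of a combination was also set against the mean of the log2 effects of its agents. For agents given at 50% each, this mean is the reference only if effects are linear in concentration, which was not tested. PI103 with oxozeaenol had 1 gene called higher and 0 lower, against 2.88% and 1.1% of all genes. That gene was ICAM1, higher by 0.34 (SE 0.0711, adjusted p 0.00553), with the same sign in 4 of 4 batches. NFKB2, NFKBIE, TNFAIP3 and BIRC2, which were not called, also had the same sign in 4 of 4 batches. PI103 with PD0325901 had 4 genes called higher and 0 lower, against 10.8% and 11.1% of all genes, while the split over all genes moved from 49.3% higher with TMM to 65% with library totals and 66.1% with upper-quartile scaling.

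ICAM1 was higher than the mean for PI103 with PD0325901 too, by 0.29 (SE 0.0713, adjusted p 0.00535) and in 4 of 4 batches. Here too, the uncalled NFKB1, NFKBIE and BIRC3 each had the same sign in 4 of 4 batches. RELB was higher by 0.56 (SE 0.184, adjusted p 0.0315), a call lost without replicate 1 (0.48) or 2 (0.34) of the combination, PD0325901 replicate 1 (0.53) or 4 (0.49), or PI103 replicate 4 (0.47), and in a fit of only these groups (0.56, adjusted p 0.0787). TNFAIP3 was higher by 0.55 (SE 0.171, adjusted p 0.0229), and this call was lost without replicate 1 (0.50) or 2 (0.37) of the combination. NFKBIA was higher by 0.19 (SE 0.0657, adjusted p 0.0384), with values between 0.16 and 0.20 in the 9 of 12 fits without 1 library that lost the call. These 9 left out PI103 replicate 1, 2 or 4, PD0325901 replicate 1, 3 or 4, or replicate 1, 2 or 3 of the combination. The call was also lost without the filter (adjusted p 0.0782) and in a fit of only these groups (adjusted p 0.0741). NFKBIE (-0.28, adjusted p 0.0683) was called lower with the replicate block (-0.27, adjusted p 0.0432), with DESeq2 (-0.27, adjusted p 0.0445) and without PD0325901 replicate 4 (-0.31, adjusted p 0.0467). BIRC3 (0.34, adjusted p 0.163) was called without PD0325901 replicate 2 (0.44, adjusted p 0.0495).

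**Figure D3:**
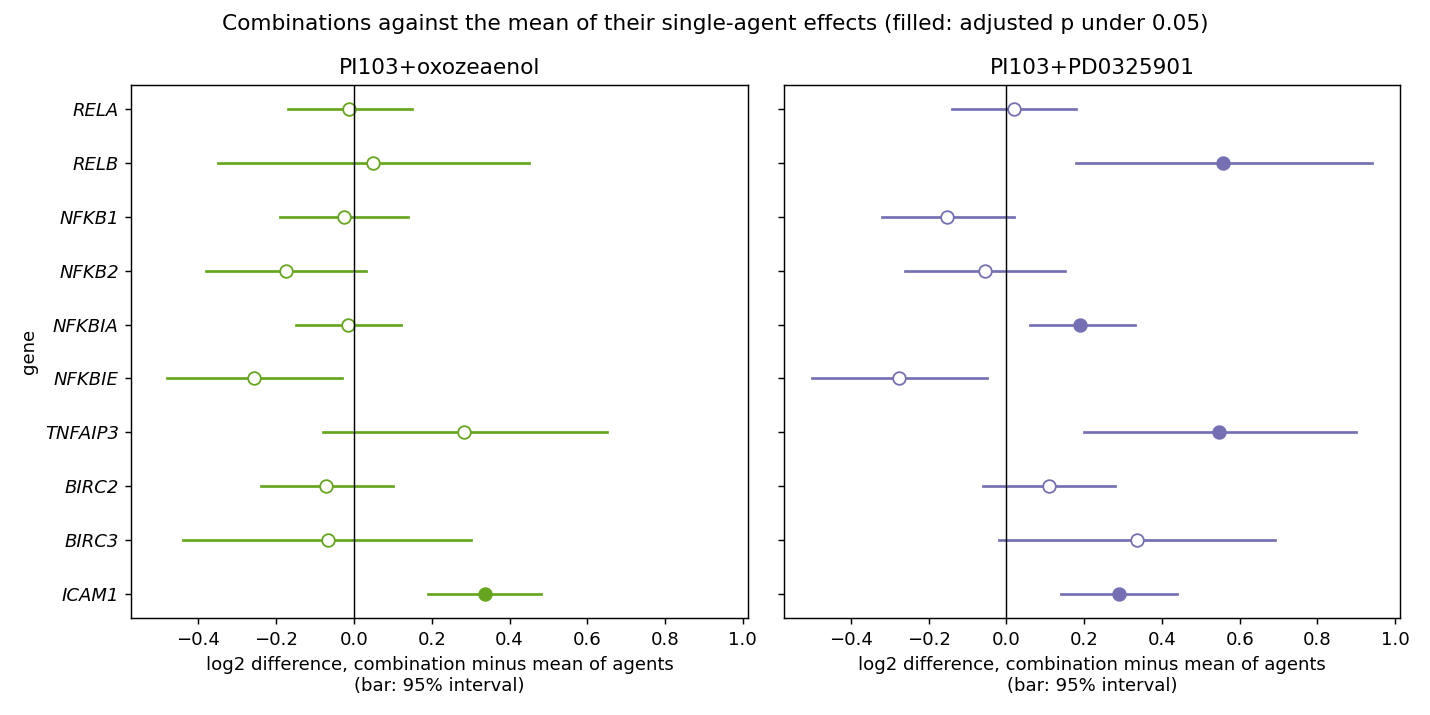
Log2 difference between each combination and the mean of its agents' effects for the 10 genes (x axis), with 95% intervals as bars and filled points where the adjusted p is under 0.05. ICAM1 lies above 0 in both panels (0.34 and 0.29), and RELB, TNFAIP3 and NFKBIA lie above 0 for PI103 with PD0325901 (0.56, 0.55 and 0.19).

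PI103 with oxozeaenol against PI103 with PD0325901 had 1 gene called higher and 6 lower, against 15.6% and 14.3% of all genes. With TMM 52.2% of all called genes were higher, against 38.4% with library totals and 37.4% with upper-quartile scaling. RELB was lower with oxozeaenol in the pair (-1.22, SE 0.221, adjusted p 0.000211), as was NFKBIA (-0.47, adjusted p 6.64e-05). ICAM1 was higher by 0.29 (adjusted p 0.0101), though not under library totals (0.22, adjusted p 0.0649). TNFAIP3 was lower (-0.73, adjusted p 0.00813), a call lost without replicate 2 of PI103 and PD0325901 (-0.54). BIRC2 was lower (-0.32, adjusted p 0.0136), which was lost without that same library (-0.27) or without replicate 3 of the other group (-0.28). For NFKB2 (-0.38, adjusted p 0.013) the call was lost without replicate 1 or 2 of PI103 and PD0325901 (both -0.31) or replicate 4 of PI103 and oxozeaenol (-0.32). For BIRC3 (-0.62, adjusted p 0.0232) it was lost without replicate 1 (-0.59) or 2 (-0.46) of PI103 and PD0325901 or replicate 2 (-0.62), 3 (-0.60) or 4 (-0.58) of PI103 and oxozeaenol.

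Other genes of the pathway were counted in 3 lists drawn up by role. Of 24 genes of upstream signalling, 7 were called higher and 7 lower with PI103, 6 and 8 with PD0325901, and 2 and 9 with oxozeaenol. The combination with oxozeaenol gave 3 and 7, and that with PD0325901 5 and 6. Over all genes 26.2% were higher and 25.2% lower with PI103, 28.7% and 29.9% with PD0325901, 25.7% and 26.1% with oxozeaenol, 27.7% and 27.9% in the combination with oxozeaenol, and 32.2% and 32.6% in that with PD0325901. The medians of the upstream genes lay between -0.11 and -0.04, against -0.02 to 0.02 for all genes. MAP3K7, which encodes TAK1, averaged 63.8 CPM in control and 59.4 CPM with oxozeaenol (-0.10, adjusted p 0.313). It was called lower with PI103 and oxozeaenol (-0.19, SE 0.0818, adjusted p 0.0467). It was not called with PI103 (-0.16, adjusted p 0.116), PD0325901 (-0.08, adjusted p 0.436) or both in combination (-0.17, adjusted p 0.0667). TAB2, an adaptor of TAK1, fell by 0.65 (SE 0.0949, adjusted p 3.11e-06) with oxozeaenol, from 162 to 104 CPM, and TNFRSF1A, the main TNF receptor, fell by 0.64 (SE 0.103, adjusted p 1.25e-05).

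Of 14 tested genes among the other subunits, inhibitors and negative feedback regulators, 2 were called higher and 5 lower with PI103, 3 and 5 with PD0325901, and 3 and 8 with oxozeaenol. In the combination with oxozeaenol 1 and 6 were called, and in that with PD0325901 4 and 5. Of all genes, 25.7% to 32.2% were called higher and 25.2% to 32.6% lower in a treatment, with 25.7% and 26.1% for oxozeaenol. The median was lowest with oxozeaenol, at -0.36. PDLIM2, a ubiquitin ligase that acts on nuclear RELA, fell by 1.08 (SE 0.121, adjusted p 5.39e-08) with oxozeaenol. NFKBIB, which encodes IkB-beta, fell by 0.81 (SE 0.105, adjusted p 5.26e-07), from 33.7 to 19.2 CPM, where NFKBIA had not been called.

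Of 20 tested genes among 32 other NF-kB targets, 3 were called higher and 11 lower with PI103, 4 and 10 with PD0325901, and 2 and 15 with oxozeaenol. The combinations gave 3 and 12 with oxozeaenol and 4 and 12 with PD0325901. Of all genes, 25.2% were called lower with PI103, 29.9% with PD0325901, 26.1% with oxozeaenol, 27.9% in the combination with oxozeaenol and 32.6% in that with PD0325901, and 25.7% to 32.2% were called higher in a treatment. Their medians were -0.35 with PI103, -0.49 with PD0325901 and -0.45 with oxozeaenol. They were -0.40 in the combination with oxozeaenol and -0.51 in that with PD0325901. IER3, a stress-induced survival gene, averaged 193 CPM in control and 11.5 CPM with oxozeaenol (-4.06, SE 0.229, adjusted p 1.69e-12), and 8.63 CPM with PD0325901. GADD45B, another stress-response gene, fell by 1.87 (SE 0.129, adjusted p 1.41e-11) with oxozeaenol and by 0.37 (adjusted p 0.0143) with PI103. The chemokine CXCL8, listed as IL8, averaged 10.2 CPM in control and 0.117 CPM with oxozeaenol (-6.47, SE 0.451, adjusted p 3.12e-11). By comparison, ICAM1 rose with oxozeaenol and TNFAIP3 was not called. As a check on the inhibitors, 6 genes of MEK-ERK output (DUSP6, SPRY4, SPRY2, ETV4, ETV5 and EGR1) were counted. The shares of all genes are those given above for each treatment. PI103 had 1 called higher and 4 lower, PD0325901 and oxozeaenol each 0 and 5. The combinations gave 0 and 5 with oxozeaenol and 1 and 5 with PD0325901. Medians were -1.32 with PI103, -4.64 with PD0325901 and -2.07 with oxozeaenol. In the combinations they were -1.39 with oxozeaenol and -4.75 with PD0325901. How far this output bears on the changes above was not tested.

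**Figure D4:**
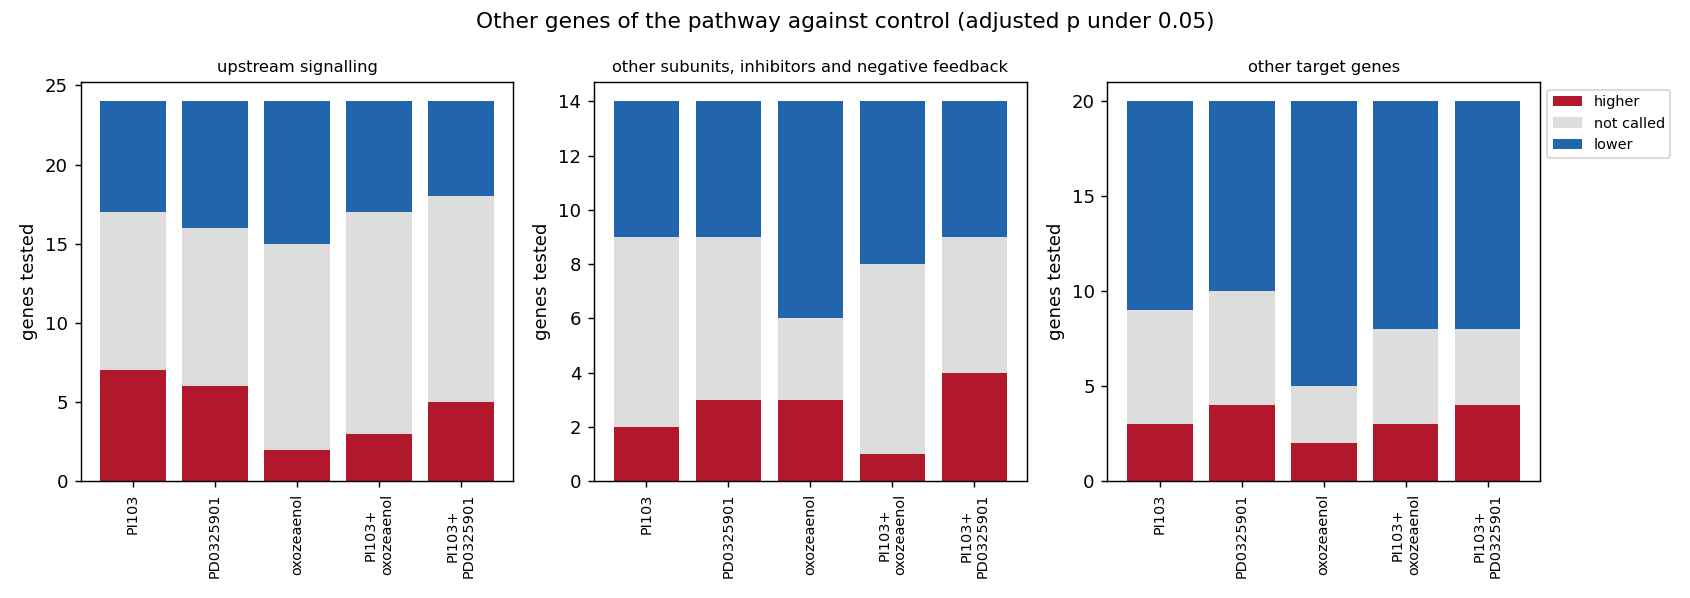
Number of genes called higher, not called and called lower against control (y axis, genes tested) in each of the 5 treatments, in 3 lists of other pathway genes. With oxozeaenol 15 of 20 other target genes are lower, 8 of 14 other subunits, inhibitors and feedback genes, and 9 of 24 upstream genes, against 26.1% of all genes tested. In the other treatments 10 to 12 of the 20 other target genes are lower, against 25.2% to 32.6% of all genes.

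The genes whose level followed each of the 10 most closely were found by Pearson's r of log2 CPM over the 24 libraries, among 10032 genes with a mean of at least 5 CPM. These libraries share treatments and controls, so r is a description only. NFKB2 was followed by VASP (0.96), ATF6 (0.95) and TFE3 (0.95), and NFKB1 by BAIAP2L1 (0.96), TCEB3 (0.96) and AKIRIN2 (0.95). RELB was followed by GPRC5B, SH3TC1 and UBE2H (each 0.93), and RELA by USP11 (0.89), NKIRAS2 (0.88) and TRIM8 (0.88). For NFKBIA the 3 genes were PPP1R3B, TOR1AIP1 and SLC29A3 (each 0.96), and for NFKBIE they were SCAMP3 (0.83), SNF8 (0.83) and GTF2F1 (0.82). TNFAIP3 was followed by LRSAM1 (0.93), BSDC1 (0.92) and LOC151534 (0.91), and BIRC2 by OFD1, YIPF4 and SEPSECS (each 0.92). BIRC3 and ICAM1 had looser followers, RAB5A (0.86), KCTD11 (0.86) and SLU7 (0.84) for BIRC3, and ROR1 (0.86), ZZZ3 (0.84) and NPAS2 (0.83) for ICAM1.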

How the data were processed

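RNA was sequenced in 24 libraries, 4 in each of 6 groups of AGS cells. Per the labels' protocols, 0.8 µg of total RNA went into a stranded mRNA kit, and the authors deposited whole-number read counts per gene symbol. The genome build is GRCh38 per the submitters' processing notes, while the aligner, counting program and annotation are not given in the sources used here. Groups were taken from sample titles, because in later replicates the treatment field counts compound names upward. The 5 rows of reads not assigned to a gene, 10.7% to 16.5% of tallied reads per library, were left out.

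Genes kept by filterByExpr were TMM-scaled and modelled in edgeR 4.0.16 (R 4.3.3) over all 24 libraries, with robust glmQLFit and the two-sided glmQLFTest, for 15 comparisons. P-values were Benjamini-Hochberg adjusted over 13947 genes, and calls are at an adjusted p under 0.05. Each standard error is the size of the log2 fold change over the root of its F statistic. Log2 CPM used a prior count of 2. The fit was tested on simulated data. DESeq2 1.42.0, limma-voom (limma 3.58.1), other scalings, no filter, only the compared groups, the replicate block and leaving out each library were alternatives.

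Samples are paired by the batch number of the labels. Deviations from group means had a mean correlation of 0.12 over 60 same-numbered pairs of libraries (47 positive) and of -0.04 over 180 differently numbered pairs.

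The 10 genes and the lists were chosen with earlier results of these data known. The text names all 10, the 2 genes of each list with the smallest adjusted p for oxozeaenol against control and a mean of at least 5 CPM, CXCL8 and MAP3K7, and the 3 genes that follow each of the 10 most closely. LYZ, PTPRC, COL1A1 and DCN are named for the marker check, and the 6 genes of MEK-ERK output for the check on the inhibitors.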

Additional observations from a re-analysis of the deposited data

Results flagged for a closer look

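In 60 groups of 4 libraries (10 genes in 6 groups), 1 group held a library far from the others. NFKBIE with PI103 was at 7.25 CPM in replicate 2 and between 5.36 and 5.49 CPM in replicates 1, 3 and 4. Chance flags about 1 in 20 such groups.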

How the results depend on the processing

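Of 2330 values of the 10 genes under alternatives, 2162 kept their direction and their side of the threshold, 96 lost a call, 29 gained a call and 43 changed sign, all of the last uncalled in both fits. The causes were not tested. The replicate block, which uses the pairing of batches, gained 10 of 150 calls and lost 0. Those that changed a call stand beside their results, and RELA with PI103 and PD0325901 changed sign to -0.01 under it.

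Signs against control changed under library totals, upper-quartile scaling and fits of only the compared groups, in that order, for NFKBIE (0.07, 0.07 and 0.01) and ICAM1 (0.06, 0.07 and 0.01) with PD0325901. The same 2 scalings gave 0.00 and 0.03 for TNFAIP3 with oxozeaenol and 0.09 and 0.10 for BIRC3 with PI103 and PD0325901. NFKB2 against the mean of PI103 and PD0325901 was 0.01 under the upper quartile. RELA with PI103 and PD0325901 was -0.02 without the filter and -0.00 by limma-voom. Library totals and upper-quartile scaling moved the median of all genes with PI103 and PD0325901 by 0.13 and 0.14.

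Leaving out each library in turn gave, against control, ranges of -0.06 to 0.04 for NFKBIE and -0.09 to 0.04 for ICAM1 with PD0325901, -0.14 to 0.13 for TNFAIP3 with oxozeaenol, and -0.20 to 0.09 for BIRC3 and -0.10 to 0.06 for RELA with PI103 and PD0325901. For PI103 with oxozeaenol against the mean, the ranges were -0.03 to 0.02 for RELA, -0.03 to 0.12 for RELB, -0.07 to 0.03 for NFKB1, -0.04 to 0.00 for NFKBIA and -0.13 to 0.01 for BIRC3. For PI103 with PD0325901 against the mean they were -0.12 to 0.02 for NFKB2 and -0.08 to 0.07 for RELA. TNFAIP3 against PI103 ranged from -0.17 to 0.03, and NFKB1 against oxozeaenol from -0.00 to 0.15, both with PI103 and oxozeaenol.

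Calls among the 10 genes in the comparison of PI103 and oxozeaenol against PI103 (2) became 1 with library totals, without the filter or by limma-voom, 4 with the replicate block and 5 in a fit of the compared groups only, and 1 to 2 without 1 library. Against oxozeaenol (1) it was 0 by limma-voom and 0 to 1 without 1 library. For PI103 with PD0325901 against PD0325901 (0) it was 1 with DESeq2, 2 with the block and 0 to 2 without 1 library, highest without PD0325901 replicate 2. Against the mean (4) it was 2 in a fit of only those groups and 1 to 5 without 1 library, lowest without replicate 1 or 2 of the combination. Between the combinations (7) it was 3 to 7, lowest without replicate 2 of PI103 and PD0325901.

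Over all genes, calls for PI103 with oxozeaenol against the mean (555) became 997 with the block, 887 with only those groups and 232 to 781 without 1 library. With only the compared groups, PI103 with oxozeaenol against PI103 (2553) gave 4088, PI103 with PD0325901 against PD0325901 (2521) gave 1222 and oxozeaenol against PD0325901 (3976) gave 2348. Without 1 library the last 2 ranged from 1385 to 3113 and from 2385 to 4282. PI103 with oxozeaenol against oxozeaenol (2074) ranged from 1050 to 2571, PI103 with PD0325901 against the mean (3065) from 1466 to 3977, and the combinations against each other (4170) from 2702 to 3997. Low counts limit the precision for TNFAIP3, with 51 counts in its lowest library.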
